A study of Mus musculus with 6 samples.

Results

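Npas4, Arc and 8 other genes that neurons switch on when they fire were examined in the prefrontal cortex (PFC) of control mice and of mice exposed to early life stress (ELS). The 10 genes were Npas4, Arc, Bdnf, Homer1, Nptx2, Vgf, Scg2, Inhba, Pcsk1 and Nrn1, out of 22000 rows in the count table, and all 10 were among the 13185 genes with enough reads to be tested. The set was selected on measured values: Npas4 and Arc were chosen by their lower counts in ELS mice, and the other 8 were set beside them as neuronal activity genes with the results of that comparison known. The difference between ELS and control is therefore given for these genes as a description, and no test on it is used as support. The animals were male C57BL/6N mice aged 9 weeks, and each of the 6 libraries came from the PFC of 1 mouse. Control mice (n = 3) lived in a group after weaning, and ELS mice (n = 3) lived alone after weaning, so that ELS here means social isolation, with no gene altered and no drug given in either group. Strain, sex, age and brain region were shared by both groups, which were drawn from litters of common mothers. Cages of ELS mice also had a filter cap, so that isolation and the cap cannot be told apart, and the housing was kept until dissection. The study's methods place behavioral tests before dissection, and the time of day of dissection is not given in the sources used here.

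Neurons that fire strongly let in calcium through NMDA receptors and voltage-gated calcium channels, and calcium-dependent kinases and the phosphatase calcineurin then act on transcription factors already present in the cell, among them CREB, SRF and MEF2. A first wave of genes follows within minutes, consisting largely of transcription factors such as Fos and Egr1 that many cell types can induce. Npas4 belongs to this wave but is largely restricted to neurons and to calcium entry, and its protein pairs with ARNT or ARNT2 to drive genes that tune inhibitory and excitatory synapses, Bdnf among them. Effector genes act at the synapse itself. Arc protein takes AMPA receptors back from the synaptic surface, and Homer1, Nptx2, Bdnf, Vgf, Scg2, Inhba, Pcsk1 and Nrn1 encode scaffold, secreted or membrane-anchored proteins that adjust synaptic strength or growth.

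The libraries held 28405795 to 35241743 counted reads, and each ELS library was deeper than each control library. Levels are given as CPM, a gene's reads relative to the total of its library, scaled by the trimmed mean of M values (TMM), which allows for differences in composition between libraries. Markers of cortical neurons were present in every mouse, with the summed level of 3 excitatory neuron markers (Slc17a7, Neurod6 and Tbr1) at 1738 to 2004 CPM in controls and 1790 to 1972 CPM in ELS mice. Of 5 striatal markers found in the table, all 5 were detected in every mouse, and their summed level was higher in control 3 and ELS 1 (335 and 310 CPM) than in the other 4 mice (183 to 227 CPM). The summed level of 4 oligodendrocyte markers was also highest in these libraries, at 6210 CPM in control 3 and 5532 CPM in ELS 1, against 4700 to 5196 CPM in the others. So was that of 5 blood markers, at 85.2 and 79.8 CPM against 51.0 to 64.4 CPM. The summed level of 4 astrocyte markers was lowest in ELS 1, at 3804 CPM against 4379 to 4630 CPM. Most of that sum was Slc1a2, at 3440 CPM in ELS 1. The other astrocyte markers did not share this order: Gfap was highest in ELS 1 (133.8 CPM), and neither Aqp4 nor Aldh1l1 was lowest there. Across 10 marker lists (neurons, excitatory and inhibitory neurons, astrocytes, oligodendrocytes, microglia, endothelium, striatum, choroid plexus and blood), the summed levels of the groups overlapped and edgeR and DESeq2 called none of the genes. Choroid plexus markers were near 0, at 1.95 to 3.15 CPM in sum. In bulk tissue, fewer cells of a type and less RNA per cell cannot be told apart.

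The sequences before the start sites were read first, since CREB, which calcium signals switch on, binds the cAMP response element (CRE) TGACGTCA or its shorter core TGACG. RefSeq start sites on GRCm38.p6 were matched for 6 of the 10 genes (Npas4, Bdnf, Homer1, Scg2, Inhba and Pcsk1), giving 13 windows of 250 bases upstream, 7 of them from the many alternative starts of Bdnf. The core lay in 5 of the 13 windows, on either strand, compared with 17.8% of all 32851 promoter windows of that length, and the full CRE, which contains the core on each strand, lay in 2, compared with 1.55%. The 5 windows with a core are shown so that these letters can be seen in their surroundings. Capitals mark each core or full CRE, read on either strand, and every line runs 5′ to 3′ on the gene's own strand.
Npas4: cgttcgaCGTCAcgggaTGACGtcggaagt
Scg2: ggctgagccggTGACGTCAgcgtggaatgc
Pcsk1: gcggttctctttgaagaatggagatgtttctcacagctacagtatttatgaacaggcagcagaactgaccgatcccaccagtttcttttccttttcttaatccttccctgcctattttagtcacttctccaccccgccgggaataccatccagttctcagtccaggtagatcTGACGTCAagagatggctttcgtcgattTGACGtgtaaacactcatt
Homer1: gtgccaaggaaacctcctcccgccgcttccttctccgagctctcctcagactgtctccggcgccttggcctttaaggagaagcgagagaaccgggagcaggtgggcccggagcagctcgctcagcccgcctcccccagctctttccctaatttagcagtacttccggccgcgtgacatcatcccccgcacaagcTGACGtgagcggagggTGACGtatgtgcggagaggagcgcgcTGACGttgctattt
Bdnf: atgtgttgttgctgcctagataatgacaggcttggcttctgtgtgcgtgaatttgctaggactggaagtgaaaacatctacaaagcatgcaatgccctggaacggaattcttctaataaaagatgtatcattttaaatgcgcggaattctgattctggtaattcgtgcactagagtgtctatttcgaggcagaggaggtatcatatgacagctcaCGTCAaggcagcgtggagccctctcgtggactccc

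The Npas4 stretch is chr19:4990128-4990157 (minus strand), 186 to 157 bases before the RefSeq start, and holds 2 cores, on opposite strands. GENCODE M21 places the start of Npas4 345 bases farther upstream, and this stretch lies in an annotated exon of the gene. Only 30 bases are given for this reason, as for Scg2 (chr1:79440076-79440105, minus strand), whose full CRE lies 68 to 61 bases before the RefSeq start and inside the first exon as GENCODE draws it. The Pcsk1 stretch (chr13:75089607-75089825, plus strand) ends at the GENCODE start of the gene and holds a full CRE 78 to 71 bases before the RefSeq start as well as a separate core. Homer1 (chr13:93303507-93303756, plus strand) has 3 cores in the last 56 bases before one of its starts, outside any exon of the gene. The Bdnf window (chr2:109692186-109692435, plus strand) lies in an intron of the longest gene model, before an internal start, and has 1 core. The letters TCGTG, the core of the element that NPAS4 and its ARNT partners bind, were found in 2 windows, both of Bdnf, compared with 13.3% of all windows. The AP-1 element TGANTCA was found in 1 window, again of Bdnf, compared with 6.75% of all windows, and the CArG box bound by SRF in 0 of the 13, compared with 1.47%. A match in these letters is a description of the sequence and does not show that a factor binds there.

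Npas4, the neuron-specific transcription factor of the set, had the widest difference between the groups. Its level was 32.3, 18.4 and 14.0 CPM in controls 1, 2 and 3, and 5.61, 8.32 and 6.85 CPM in ELS 1, 2 and 3. All 3 ELS mice lay below all 3 controls, with a gap of 5.65 CPM between the lowest control and the highest ELS mouse. The groups had means of 21.6 ± 9.57 and 6.93 ± 1.36 CPM (control and ELS, SD, n = 3 mice each). The fitted log2 fold change (ELS minus control) was -1.64 (SE 0.253, 95% interval -2.19 to -1.09), which places the ELS level at 32.1% of control (95% interval 21.9% to 47.0%).

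The controls differed among themselves by 2.31-fold in Npas4, from 13.97 to 32.33 CPM, and the ELS mice by 1.48-fold. The library with the fewest Npas4 reads had 187, for which counting alone gives a coefficient of variation of 7.31%, whereas the coefficient of variation between controls was 44.4%. The within-group SD on the log2 scale, 0.452, was at the 99.9th percentile of all tested genes, so Npas4 was both the gene of the set with the widest difference and the one with the widest spread. Control 1 carried much of the spread, and the within-group SD was 0.254 without it, with a log2 fold change of -1.22. The gene lies at chr19:4984355-4990316 (minus strand, GRCm38), has 3 annotated transcripts, 2 of them coding, and shares no exonic base with another gene.

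Arc, which encodes a capsid-like protein that promotes removal of AMPA receptors from synapses, was the other gene chosen by its difference. The level was 262, 199 and 231 CPM in controls 1, 2 and 3 and 144, 158 and 196 CPM in ELS 1, 2 and 3. The groups did not overlap, but control 2 and ELS 3 were separated by 3.18 CPM only. The respective means were 231 ± 31.6 and 166 ± 26.8 CPM (control and ELS, SD, n = 3 mice each), with a log2 fold change of -0.47 (SE 0.116, 95% interval -0.73 to -0.22), or 72.0% of the control level (95% interval 60.4% to 85.7%). The within-group SD of 0.212 was at the 92.1st percentile of tested genes. Arc (chr15:74669083-74672570, minus strand) had 4815 to 8077 reads per library, and counting error was at most 1.44%.

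**Figure D1:**
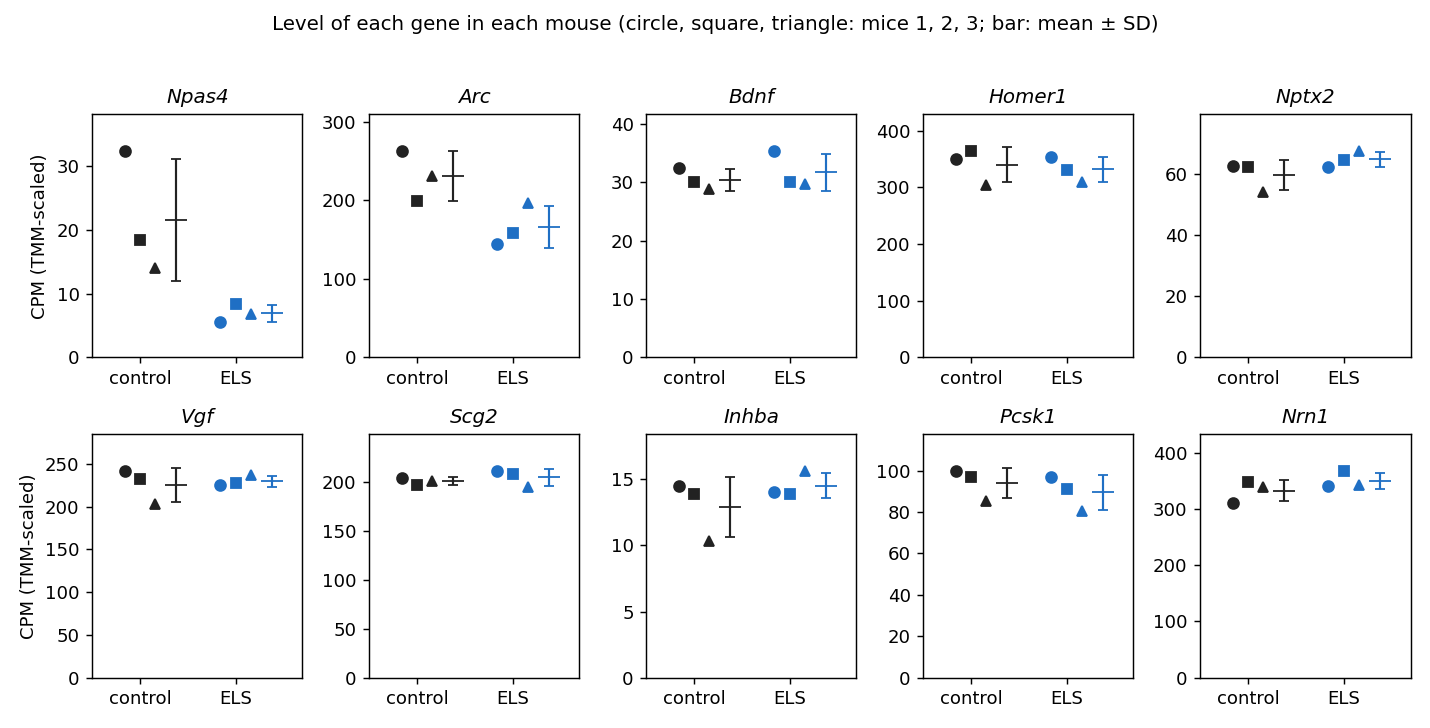
Level of each of the 10 genes (vertical axes, TMM-scaled CPM, starting at 0) in each control mouse (black) and ELS mouse (blue), where circle, square and triangle are mice 1, 2 and 3 and the bar beside them is the mean ± SD. In the Npas4 panel the ELS mice sit between 5.61 and 8.32 CPM and the controls between 14.0 and 32.3 CPM, in the Arc panel the groups are separated by 3.18 CPM, and in the other 8 panels the groups overlap.

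The 2 genes did not rank the mice alike. Control 1 was highest and ELS 1 lowest for both. The intermediate mice changed places, since control 3 had more Arc but less Npas4 than control 2, and ELS 3 had more Arc but less Npas4 than ELS 2. Npas4 reads per 100 Arc reads were 12.3, 9.24 and 6.05 in controls 1, 2 and 3 and 3.88, 5.27 and 3.50 in ELS 1, 2 and 3. Every ELS mouse was thus below every control in this ratio. Since both genes were chosen by their lower ELS counts, the ratio describes those same values.

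Among the effectors, Bdnf encodes a secreted neurotrophin that acts through the receptor TrkB and is a known NPAS4 target. Bdnf was at 32.4, 29.96 and 28.8 CPM in controls 1 to 3 and at 35.3, 30.03 and 29.6 CPM in ELS 1 to 3. The highest mouse was ELS 1 and the lowest control 3, and the groups overlapped (control = 30.4 ± 1.82, ELS = 31.7 ± 3.16, log2 fold change 0.06, 95% interval -0.13 to 0.25). Npas4 reads per 100 Bdnf reads were 99.9, 61.5 and 48.5 in controls and 15.9, 27.7 and 23.1 in ELS mice, without overlap. Npas4 was chosen by its lower ELS counts, and Bdnf varied only 1.23-fold over all mice. The ratio therefore restates that choice. Bdnf (chr2:109674700-109727007, plus strand) has 11 annotated transcripts that start at different first exons, and the counts sum over them. Of its merged exon length, 14.4% is shared with Gm45346 on the opposite strand.

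Homer1 encodes a scaffold that links metabotropic glutamate receptors to the postsynaptic density, and activity induces a short form, Homer1a, that breaks these links. The level was 351, 364 and 305 CPM in controls 1 to 3 and 354, 331 and 310 CPM in ELS 1 to 3. Mouse 3 was lowest in each group, and the groups overlapped (control = 340 ± 30.8, ELS = 332 ± 22.1, log2 fold change -0.03, 95% interval -0.21 to 0.14). The gene (chr13:93299635-93405129, plus strand) has 12 annotated transcripts, 11 of them coding, and gene-level counts do not separate the short activity-induced form from the long forms. Arc reads per 100 Homer1 reads were 74.8, 54.7 and 75.7 in controls and 40.7, 47.7 and 63.2 in ELS mice, and here the groups overlapped through control 2 and ELS 3.

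Nptx2 encodes a secreted pentraxin that clusters AMPA receptors, mainly on inhibitory interneurons. Its level was 62.3, 62.1 and 53.9 CPM in controls 1 to 3 and 62.1, 64.4 and 67.3 CPM in ELS 1 to 3. ELS 1 lay just under 2 of the controls, and control 3 was lowest of all (control = 59.5 ± 4.81, ELS = 64.6 ± 2.60, log2 fold change 0.12, 95% interval -0.04 to 0.28). Nptx2 (chr5:144545902-144557478, plus strand) has 1 annotated transcript. Nrn1 encodes neuritin, a membrane-anchored protein that promotes neurite growth and synapse stability. Nrn1 was at 311, 347 and 339 CPM in controls 1 to 3 and at 341, 367 and 342 CPM in ELS 1 to 3. Control 1 was lowest and ELS 2 highest, with overlap between the groups through control 2 (control = 333 ± 18.9, ELS = 350 ± 14.6, log2 fold change 0.07, 95% interval -0.07 to 0.22). On chr13:36725361-36735131 (minus strand), 22.3% of the exon length of Nrn1 is shared with Fars2 on the opposite strand, and the strand setting of the counting is not given in the sources used here.

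Vgf, Scg2 and Pcsk1 belong to the dense-core granule, which stores peptides and releases them on activity. Vgf, a precursor of several neuropeptides, was at 241, 232 and 203 CPM in controls 1 to 3 and at 225, 227 and 236 CPM in ELS 1 to 3. The ELS mice lay within the range of the controls (control = 225 ± 19.8, ELS = 229 ± 6.21, log2 fold change 0.02, 95% interval -0.14 to 0.19). Arc reads per 100 Vgf reads were 109, 85.8 and 114 in controls and 64.3, 69.6 and 82.9 in ELS mice, without overlap. This ratio carries the difference by which Arc was chosen. Vgf lies at chr5:137026392-137033351 (plus strand).

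Scg2, which encodes the granin that gives rise to secretoneurin, had the smallest within-group SD of the set when all mice were used. Without control 3 the SD was smaller for Vgf (0.0386) and Nptx2 (0.0466) than for Scg2 (0.0538). Without control 1 it was 0.0505 for Nrn1 and 0.0508 for Scg2, and without ELS 3 it was 0.0241 for Scg2. Scg2 was at 204, 196 and 201 CPM in controls 1 to 3 and at 210, 208 and 195 CPM in ELS 1 to 3. The ELS mice included both the highest and the lowest value (control = 200 ± 3.89, ELS = 204 ± 8.42, log2 fold change 0.03, 95% interval -0.11 to 0.17), and the within-group SD of 0.0467 on the log2 scale was at the 7.61st percentile of tested genes. Pcsk1 encodes prohormone convertase 1/3, which cuts peptide precursors in the granule. Pcsk1 was at 99.6, 96.8 and 85.5 CPM in controls 1 to 3 and at 97.0, 91.0 and 80.5 CPM in ELS 1 to 3. The groups overlapped across most of their ranges (control = 94.0 ± 7.44, ELS = 89.5 ± 8.33, log2 fold change -0.07, 95% interval -0.25 to 0.11). Leaving out ELS 3 gave -0.0005 and leaving out control 3 gave -0.14. Scg2 lies at chr1:79434669-79440120 (minus strand) and Pcsk1 at chr13:75089826-75134861 (plus strand).

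Inhba encodes the subunit of activin A, a secreted factor of the TGF-beta family that activity induces in neurons. Inhba was at 14.5, 13.9 and 10.3 CPM in controls 1 to 3 and at 14.0, 13.9 and 15.6 CPM in ELS 1 to 3. Control 3 stood below the other 5 mice (control = 12.9 ± 2.26, ELS = 14.5 ± 0.953, log2 fold change 0.16, 95% interval -0.11 to 0.44). The log2 fold change was 0.03 without control 3 and 0.26 without control 1. It was the least counted gene of these 8, with 296 reads in control 3. The gene lies at chr13:16011851-16031621 (plus strand), on the chromosome that also carries Homer1, Pcsk1 and Nrn1.

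In all 8 effectors other than Arc the groups overlapped, with log2 fold changes from -0.07 to 0.16, 6 above 0 and 2 below. Overlap was the usual case, since only 4.47% of all tested genes had all ELS mice below the controls and 3.81% above. Taken over the 8, the 95% intervals ran from 83.9% to 135% of the control level. An ELS level under 83.9% or above 135% of control lay outside the interval of each of these genes, taken 1 gene at a time and as a description. These are the widest bounds, from Pcsk1 and Inhba, and the interval of Scg2 ran from 92.6% to 112% of control. With 1 mouse left out, the log2 fold change ran from 0.05 to 0.16 for Nptx2, from 0.03 to 0.11 for Nrn1 and from 0.0036 to 0.06 for Scg2.

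**Figure D2:**
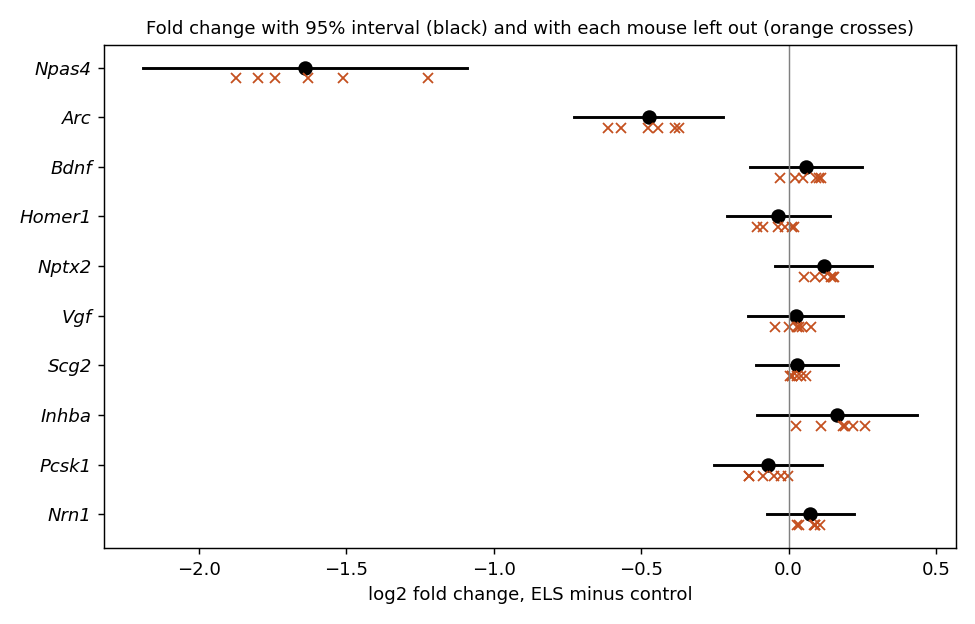
Log2 fold change of each gene (horizontal axis, ELS minus control) with its 95% interval in black, and with each of the 6 mice left out in turn as orange crosses. Npas4 (-1.64) and Arc (-0.47) were chosen by this difference and their groups do not overlap, so that their crosses lie below 0 follows from the choice. The intervals of the other 8 genes include 0.

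By edgeR's quasi-likelihood test with Benjamini-Hochberg adjustment, 0 of the 10 genes passed an adjusted p of 0.05 with a log2 fold change of at least 0.3 in size, where 0.0152% of all tested genes passed (2 of 13185). By DESeq2, 2 of the 10 passed (Npas4 and Arc), both lower in ELS, where 0.129% of tested genes passed in that direction. Without control 3, edgeR called 1 of the 10, Npas4, with a log2 fold change of -1.88, in a fit that called 0.219% of tested genes (29 of 13212). Leaving out any other single mouse called none of the 10. With all mice, at an unadjusted p under 0.05 by edgeR there were 2 of 10, again Npas4 and Arc, against 4.23% of tested genes. These were also the genes whose ELS mice all lay below all controls, 2 of 10 against 4.47% of tested genes, and 0 of 10 had all ELS mice above all controls, against 3.81%. The log2 fold change was below 0 for 4 of the 10 genes and for 52.5% of tested genes, and the median was 0.03 for the 10 genes and -0.0046 for all tested genes. Since Npas4 and Arc were chosen by this comparison, nothing further is read from these counts.

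Within the groups, the mice differed in how often they were highest or lowest. Control 1 was the highest control for 8 of the 10 genes, and control 3 was the lowest control for 7 and the lowest of all 6 mice for 5 (Bdnf, Homer1, Nptx2, Vgf and Inhba). ELS 1 was the highest ELS mouse for 4 genes and the lowest for 5, and ELS 3 was highest for 4 and lowest for 4. Over all genes, control 3 and ELS 1 stood apart from the other mice of their groups. The chi-square of the counts of a pair, divided by its degrees of freedom, was 20.1 and 18.9 for control 3 against controls 1 and 2, 12.7 and 9.12 for ELS 1 against ELS 2 and 3, and 7.08 for control 3 against ELS 1. It was 6.89 between controls 1 and 2 and 6.39 between ELS 2 and 3. Control 3 was also the mouse with the lowest excitatory neuron marker sum (1738 CPM) and the highest striatal and oligodendrocyte sums (335 and 6210 CPM). ELS 1, with a striatal sum of 310 CPM, was the lowest ELS mouse for Npas4, Arc, Nptx2, Vgf and Nrn1 and the highest for Bdnf, Homer1, Scg2 and Pcsk1. The part of tissue makeup in these levels was not tested.

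**Figure D3:**
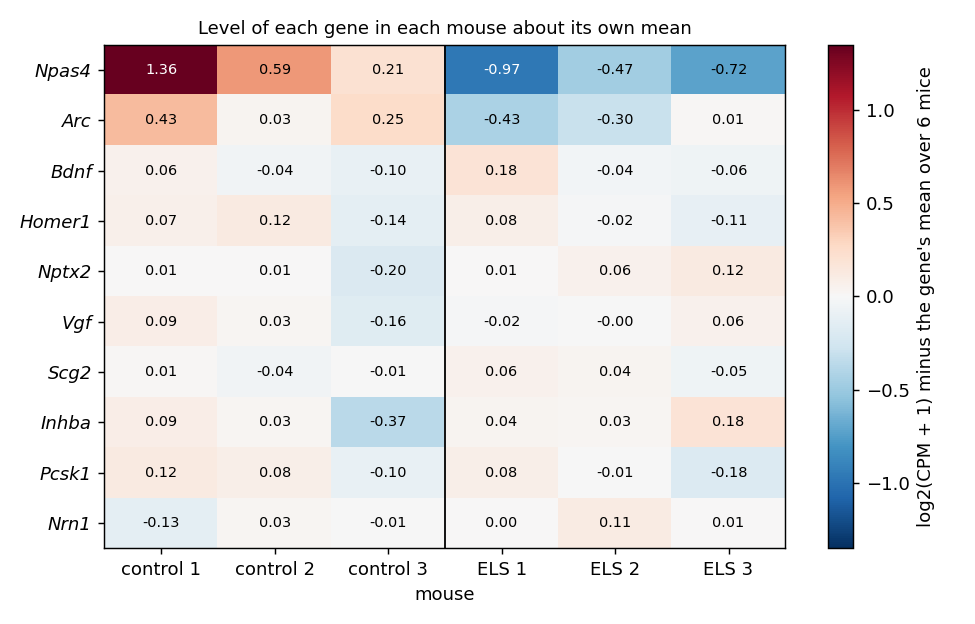
Level of each gene (rows) in each mouse (columns) as log2(CPM + 1) minus the gene's own mean over the 6 mice, with red above and blue below that mean. Npas4 runs from 1.36 in control 1 to -0.97 in ELS 1 and Arc from 0.43 to -0.43, whereas the other 8 genes stay between -0.37 (Inhba, control 3) and 0.18.

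Per kilobase of merged exon, a scale on which genes can be compared, the 10 genes spanned a wide range of levels. Nrn1 was highest at 151.9 CPM per kilobase as a mean of 6 mice, and its range of 138 to 163 lay above every other gene. Scg2 (80.5), Vgf (76.5) and Arc (64.9) came next, and the ranges of neighbours in this order overlapped. Homer1 (28.1) and Nptx2 (24.5) overlapped each other, and Pcsk1 (16.4) stood apart from both. With the longest transcript as the length, Homer1 was at 58.8 (53.4 to 63.7), apart from Nptx2 and overlapping Arc. Bdnf (4.99), Npas4 (3.45) and Inhba (2.15) were lowest, with Npas4 overlapping both neighbours.

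On this scale Npas4 and Arc stood differently to their neighbours in the groups, which restates the difference by which they were chosen. In controls Npas4 was at 3.38 to 7.82 CPM per kilobase, above Inhba (1.62 to 2.27) in all 3 mice and overlapping Bdnf (4.63 to 5.21). In ELS mice it was at 1.36 to 2.01, under both Inhba (2.17 to 2.44) and Bdnf (4.77 to 5.68), and so the lowest gene of the set. The separation from Inhba depended on the length used, since with the longest transcript Npas4 was at 1.48 to 2.20 in ELS mice and overlapped Inhba. Arc was at 65.2 to 85.8 in controls, where it overlapped Vgf (68.4 to 81.1) and Scg2 (78.0 to 81.1). In ELS mice, at 47.2 to 64.1, it lay below both Vgf (75.6 to 79.5) and Scg2 (77.4 to 83.7).

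The genes whose profile over the 6 mice was nearest to each member were found by the root mean square difference of centred log2(CPM + 1) values, over 13175 other genes. These profiles keep the difference between the groups by which Npas4 and Arc were chosen, so part of each distance reflects that difference. Nearest to Npas4 were Egr1 (0.469), Hif3a (0.497) and Zbtb16 (0.513), where the median gene was at 0.814. The Npas4 profile had a root mean square of 0.81 about its own mean, so even these genes were not close to it. Nearest to Arc were RP24-87I22.6 (0.0763), Pstpip2 (0.111) and Fam71e1 (0.117), with a median gene at 0.306. Among the set itself, Npas4 was 0.583 from Arc and 0.765 to 0.857 from the other 8, and Arc was 0.301 to 0.375 from these 8. The closest pairs within the set were Homer1 with Pcsk1 (0.0435) and Nptx2 with Vgf (0.0501). For the 8 steadier genes the distances were small because their own spread was small, as for Scg2 and Csnk1a1 (0.0067), Pcsk1 and Tmem74 (0.0120), Nptx2 and Nlgn1 (0.0198) or Bdnf and Foxp2 (0.0256). With 6 mice, likeness of this kind is a description of these libraries.

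The other genes of the pathway were read from lists by role. These lists were written with earlier results of these data known, so their counts are a description and no independent support. Transcription factors of the first wave lay mostly below 0, as Npas4 and Arc did. Of 18 listed, 16 were tested, 15 had a log2 fold change below 0, and the median was -0.37. Over all tested genes 52.5% were below 0. None passed edgeR's test, 12 had an unadjusted p under 0.05 (4.23% of all tested genes), and DESeq2 called 2, Fos and Nr4a1, both lower in ELS (0.129% of all tested genes). The ELS mice all lay below the controls for 5 of the 16 and above them for 1, against 4.47% and 3.81% of all tested genes. Without control 1 the median was -0.22.

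Egr1, a zinc-finger factor, was at 310, 276 and 202 CPM in controls 1 to 3 and at 177, 175 and 131 CPM in ELS 1 to 3 (log2 fold change -0.70, SE 0.144). Fos, the partner of Jun proteins in AP-1, was at 35.1, 29.2 and 24.2 CPM in controls and at 22.4, 17.4 and 15.8 CPM in ELS mice (log2 fold change -0.67, SE 0.144). Nr4a1, an orphan nuclear receptor, was at 82.9, 73.3 and 69.3 CPM in controls and at 52.2, 59.8 and 51.4 CPM in ELS mice (log2 fold change -0.46, SE 0.0854). For each of these the groups did not overlap, and the controls ranked 1, 2, 3 from high to low, as they did for Npas4. In ELS mice the lowest was ELS 3 for all of them, whereas ELS 1 was lowest for Npas4. Egr3 had the largest unadjusted p of the list, with 181 to 229 CPM in controls and 202 to 213 CPM in ELS mice (log2 fold change -0.01, SE 0.0843). Jun, named here after its values were seen, was the 1 gene above 0, at 49.0 to 51.1 CPM in controls and 57.8 to 61.4 CPM in ELS mice (log2 fold change 0.23).

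Further effector genes of activity lay closer to 0. Of 20 listed, 19 were tested, 13 were below 0 and 6 above, the median log2 fold change was -0.07 (-0.02 without control 3), and 2 had an unadjusted p under 0.05 (4.23% of all tested genes), with none called by edgeR or DESeq2. These were Ptgs2, which encodes the inducible cyclooxygenase (log2 fold change -0.33, SE 0.124), and Adcyap1, which encodes the neuropeptide PACAP (log2 fold change 0.19, SE 0.0748). Adcyap1 was at 27.6, 25.3 and 27.4 CPM in controls and 29.9, 31.2 and 30.2 CPM in ELS mice, with all ELS mice higher, whereas Ptgs2 overlapped between groups, at 15.8 to 19.7 against 11.8 to 15.8 CPM. Pcdh8, an activity-induced protocadherin, was at 18.8 to 29.6 CPM in controls and 25.5 to 29.6 CPM in ELS mice (log2 fold change 0.29, SE 0.142), and Syt4, a granule synaptotagmin, had the largest unadjusted p (log2 fold change -0.002).

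Upstream of all of these, 23 genes of the calcium and CREB route were tested, 12 below 0 and 11 above, with a median of -0.0002 and none called by edgeR or DESeq2. The 1 of 23 with an unadjusted p under 0.05, a share near the 4.23% of all tested genes, was Camkk1, a kinase that activates CaMKIV, at 140, 132 and 129 CPM in controls and 119, 120 and 120 CPM in ELS mice (log2 fold change -0.16, SE 0.0639). Crtc2, a CREB coactivator, had a log2 fold change of -0.18 and Elk1, an SRF partner, 0.11, both with overlapping groups. Camk2b had the largest unadjusted p, at -0.0002.

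**Figure D4:**
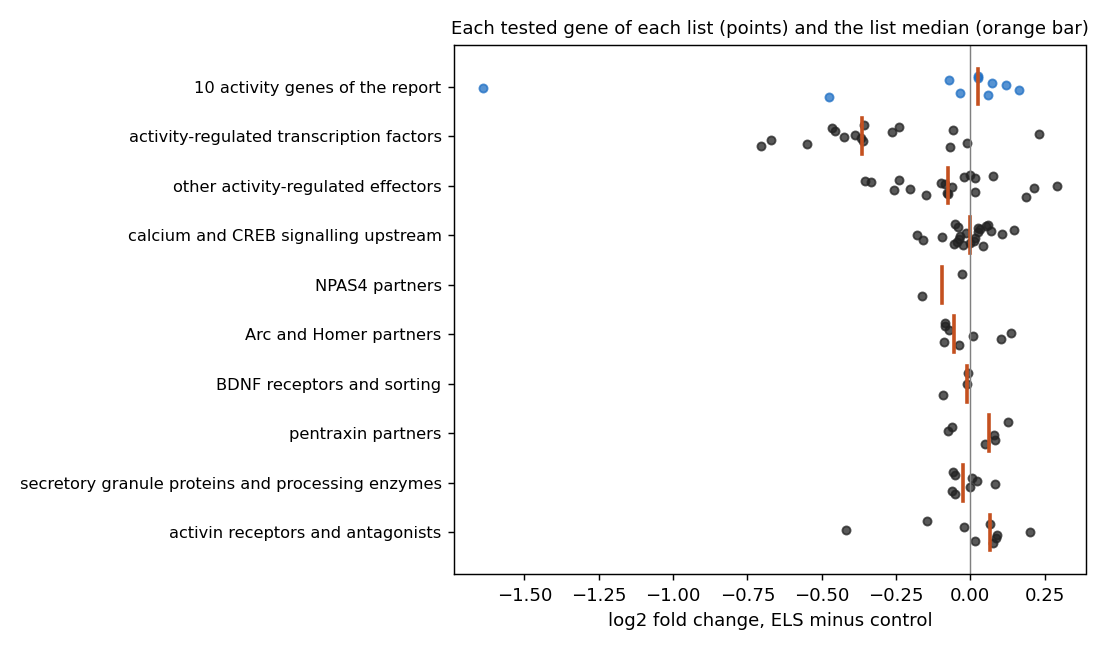
Log2 fold change (horizontal axis, ELS minus control) of every tested gene in each list (points, blue for the 10 genes examined here) with the median of each list as an orange bar. The list of activity-regulated transcription factors has its median at -0.37, and the medians of the other pathway lists lie between -0.09 and 0.07.

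Partners of the proteins that these genes encode were read in the same way, and no list of them had a gene called by edgeR or DESeq2. Arnt and Arnt2, which pair with NPAS4, had log2 fold changes of -0.16 and -0.03. Of 8 partners of Arc and Homer proteins (among them Grm5 and Shank1 to Shank3), 5 were below 0 and 3 above, from -0.09 to 0.14. Of the BDNF receptor and sorting genes, Ntrk2, which encodes TrkB, was at -0.01, Sort1 at -0.01 and Furin at -0.09, and Ngfr had too few reads to be tested. Among the pentraxin partners, Nptxr was at 0.13, Nptx1 at -0.06 and the AMPA receptor subunits Gria1, Gria2, Gria3 and Gria4 at 0.05, 0.08, 0.08 and -0.07.

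Secretory granule genes other than Vgf, Scg2 and Pcsk1 were tight, with 8 tested genes between -0.06 (Chgb) and 0.08 (Pam). Of 9 activin receptors and antagonists, 6 were above 0 and 3 below, with a median of 0.07 (-0.06 without control 3). Fst, which encodes follistatin, the secreted protein that binds and neutralises activin, was at 4.42, 5.98 and 5.48 CPM in controls 1 to 3 and at 4.05, 3.92 and 3.91 CPM in ELS 1 to 3. Its ELS mice all lay below the controls (log2 fold change -0.42, SE 0.159), closest between control 1 and ELS 1, and it was the 1 gene of 9 with an unadjusted p under 0.05 (4.23% of all tested genes) and with groups that did not overlap in that direction (4.47%). The receptor gene Acvr2b had a log2 fold change of 0.20 with overlapping groups. Fst and Acvr2b had the lowest and highest log2 fold changes of the 9.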

How the data were processed

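RNA from the PFC of 6 mice was sequenced, 1 library per mouse. The deposited table holds raw counts of reads per gene, which the authors made from uniquely mapped reads with STAR (2.7.1a) and HTSeq (0.9.1) on mm10, as named in the submitters' processing notes. The annotation release and the strand setting of the counting are not given in the sources used here, and the labels and the methods name different STAR versions and different library kits, both stranded. ELS columns carry the name of social isolation and a mouse number, and were matched to samples by these. The authors' filter was repeated: a gene was kept if every mouse of at least 1 group had 1 CPM or more before TMM scaling (13185 of 22000). The 2 symbols listed in more than 1 row were kept as separate rows.

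Counts were scaled by TMM and fitted with edgeR (4.0.16, R 4.3.3) by the quasi-likelihood test, group as the only term, with Benjamini-Hochberg adjustment over all tested genes, an adjusted p of 0.05 and a log2 fold change of 0.3 in size as thresholds. Intervals are at 95%. Alternatives were DESeq2 (1.42.0), limma-voom (3.58.1), edgeR's likelihood ratio test, other size factors, looser filters, a block for replicate number, and omission of single mice. The scripts were tested on simulated data. Gene positions are from GENCODE M21 (GRCm38, the assembly of mm10), and start sites and sequences from RefSeq (GRCm38.p6). Depth was 28405795 to 35241743 counts per library. Marker lists for 10 cell or tissue classes were read, of which the striatal list had 5 of 6 genes in the table. A few listed genes are not reported here.

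Genes and lists were chosen with earlier results of these data known. The text names the 10 genes, the partner lists by role, the 3 genes with the smallest and the 1 with the largest unadjusted p in each larger pathway list, and the 3 nearest profiles of a gene. The mice of a group are separate animals, so the spread is between animals.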

Additional observations from a re-analysis of the deposited data

How the results depend on the processing

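Npas4 and Arc kept a log2 fold change below 0 in all 14 alternatives, from -1.88 to -1.22 for Npas4 and from -0.61 to -0.37 for Arc, with adjusted p from 3.39e-07 to 0.446 and from 0.03 to 1 over the edgeR, DESeq2 and limma fits. Since these 2 genes were chosen as lower in ELS mice and their groups do not overlap, a sign below 0 here is no further support. Of the 10 genes, DESeq2 and edgeR's likelihood ratio test called 2 (Npas4 and Arc), where they called 0.137% and 0.212% of tested genes, and edgeR with all genes of at least 1 read called 1 (Npas4), where it called 0.023%. Leaving out 1 mouse gave 0 to 1, the 1 being Npas4 without control 3 (adjusted p by edgeR 0.000235), a setting in which 0.219% of tested genes were called. Same-numbered mice deviated together in 1 of 3 pairs (correlations of -0.164, 0.258 and -0.0355). No label pairs mice by number, and the main fit did not pair them. These correlations cannot show whether mice of the same number were littermates. With a replicate block, which called 0.0531% of tested genes, 1 of the 10 was called (Npas4, log2 fold change -1.57) and 2 genes of the pathway lists (Egr1 and Fos). Of the pathway genes, DESeq2 called 2, the likelihood ratio test 3 (Egr1, Fos and Nr4a1), and leaving out 1 mouse 0 to 5, the 5 without control 3.

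Near 0, leaving out 1 mouse turned the sign of Homer1 (-0.108 to 0.0176), Vgf (-0.0464 to 0.0758) and Bdnf (-0.0276 to 0.109). With the longest transcript as the length, the order of mean levels per kilobase was the same, but 4 of the 10 levels moved beyond their spread (Homer1 to 58.8, Bdnf to 7.27, Pcsk1 to 18.2 and Nrn1 to 192), and Homer1 no longer overlapped Nptx2, nor did Npas4 stay apart from Inhba in ELS mice. For Npas4, the coefficient of variation between controls was 44.4%, and counting alone gave 7.31% in the library with the fewest reads. What set the width of the intervals was not tested. The cause of these differences between settings was not tested.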
